A study of Mus musculus with 24 samples.

Results

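Culture in 2i was examined in the mouse embryonic stem cell (mESC) line J1, with 2 arrays of J1 treated with 2i and 2 arrays of untreated J1 out of the 24 arrays of the study. The arrays were chosen by their titles, and 2 arrays of a second untreated mESC line, R1, were used beside them. The study profiled 12 groups of mouse epiblast stem cell lines, mESC lines and dissected embryonic tissue, with 2 single-colour arrays each. The stem cells, in every group compared here, were grown on feeder layers and separated from the feeders before total RNA was taken. The labels name neither the inhibitors in 2i nor their doses, the time in 2i, the base medium, or whether the replicate arrays came from separate cultures. The p-values may therefore measure technical spread only, and J1 is a single line.

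In common use 2i combines an inhibitor of the kinase Mek with an inhibitor of the kinase Gsk3. Mek activates the Erk kinases below Fgf receptors, and this signal moves mouse pluripotent cells away from the naive state of the preimplantation embryo towards the primed state of the epiblast after implantation. Gsk3 marks beta-catenin for destruction, so its inhibition mimics a Wnt signal, and beta-catenin acts with Tcf and Lef proteins on target genes. Conventional mESC cultures are known to hold a mixture of cells that differ in such early differentiation genes.

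Levels are log2 processed signals after the 75th percentile of each array was subtracted, so that 0 is that percentile, and differences are 2i minus untreated J1 in log2 units with the standard error of the fit. A gene was tested where both arrays of either group compared gave its probe a signal well above background, and called where the limma adjusted p was below 0.05 and the change at least 2-fold. Because genes bright in only 1 group pass that filter, the counts and medians given for gene lists are descriptions of the tested members. On the 2i arrays 45.9% and 47.4% of probes were well above background and on the untreated J1 arrays 42.8% and 42.2%, and replicate arrays correlated at r = 0.983 and 0.984. The 2i arrays lay alone on 1 slide with its own scan day, and the untreated J1 arrays shared another slide with E7.5 ectoderm, so slide and 2i cannot be told apart. Pluripotency genes were present in both groups. Pou5f1, which encodes Oct4, read 6.06 and 5.92 in 2i, against 6.35 and 6.42 in untreated J1, and Sox2 read 4.25 and 4.20 in 2i, against 4.35 and 4.24 in untreated J1.

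Of 13053 genes tested, 1778 were called between 2i and untreated J1, or 13.6%. Of these 846 were higher in 2i (6.48%) and 932 lower (7.14%), and the median difference over all tested genes was -0.05. Setting the same 2i arrays against R1 called 2088 of 12994 genes (16.1%), while the untreated lines R1 and J1 differed in 71 of 12514 genes (0.567%). These 3 comparisons share arrays. R1 and J1 lay on different slides but were scanned on the same day, while the 2i arrays had both a slide and a scan day of their own. Among the falls were signals and transcription factors of the epiblast and primitive streak. The rises included Ndufa4l2 and other genes of the hypoxia response, next to many dim noncoding and tissue-restricted genes. With a background correction that damps dim probes, 614 genes were called and 39 of the 116 called genes named here lost the call, and 1176 were called among genes well above background on all 4 arrays.

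**Figure D1:**
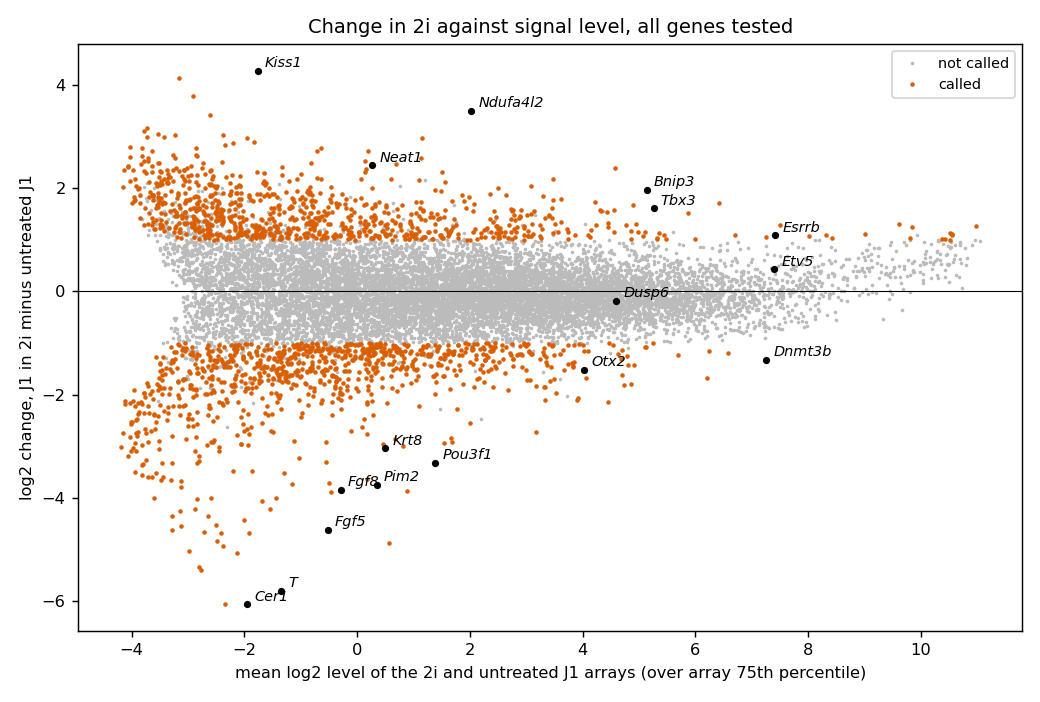
Log2 change between J1 in 2i and untreated J1 (vertical) against the mean log2 level of the 4 arrays over the array's 75th percentile (horizontal), 1 point per tested gene, called genes in orange and 17 genes named. Changes are drawn as fitted, also for T, Cer1 and Kiss1, which were above background in only 1 of the groups and for which the text gives bounds. T and Cer1 lie lowest among the named genes at -5.80 and -6.06, and Kiss1 and Ndufa4l2 lie highest at 4.28 and 3.50.

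Fgf5, Pou3f1 and Ndufa4l2 were given as markers for the comparison of 2i with untreated J1. Fgf5, the Fgf ligand that is switched on in the epiblast at implantation, read -2.71 and -2.95 in 2i, against 1.81 and 1.76 in untreated J1. Its 2 values in 2i were the lowest of all 24 arrays, and it fell by 4.62 ± 0.22 on the log2 scale (adjusted p = 1.37e-08). Pou3f1, which encodes the POU factor Oct6 of primed epiblast and early neural cells, read -0.22 and -0.34 in 2i, against 2.71 and 3.36 in untreated J1. Here too the 2i arrays were the lowest of the 24, with a difference of -3.32 ± 0.25 (adjusted p = 6.36e-07). Ndufa4l2, a mitochondrial protein gene known as a target of hypoxia-inducible factors, read 3.55 and 4.0 in 2i, against 0.26 and 0.28 in untreated J1. The groups did not overlap and the difference was 3.50 ± 0.40 (adjusted p = 2.68e-05). Ndufa4l2 was as bright in some epiblast stem cell lines as in 2i, at 3.84 and 3.85 in line 129C1, while R1 gave 0.50 and -0.70. Against R1 the 2i arrays differed by -3.65, -2.91 and 3.87 for the 3 genes, each called.

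**Figure D2:**
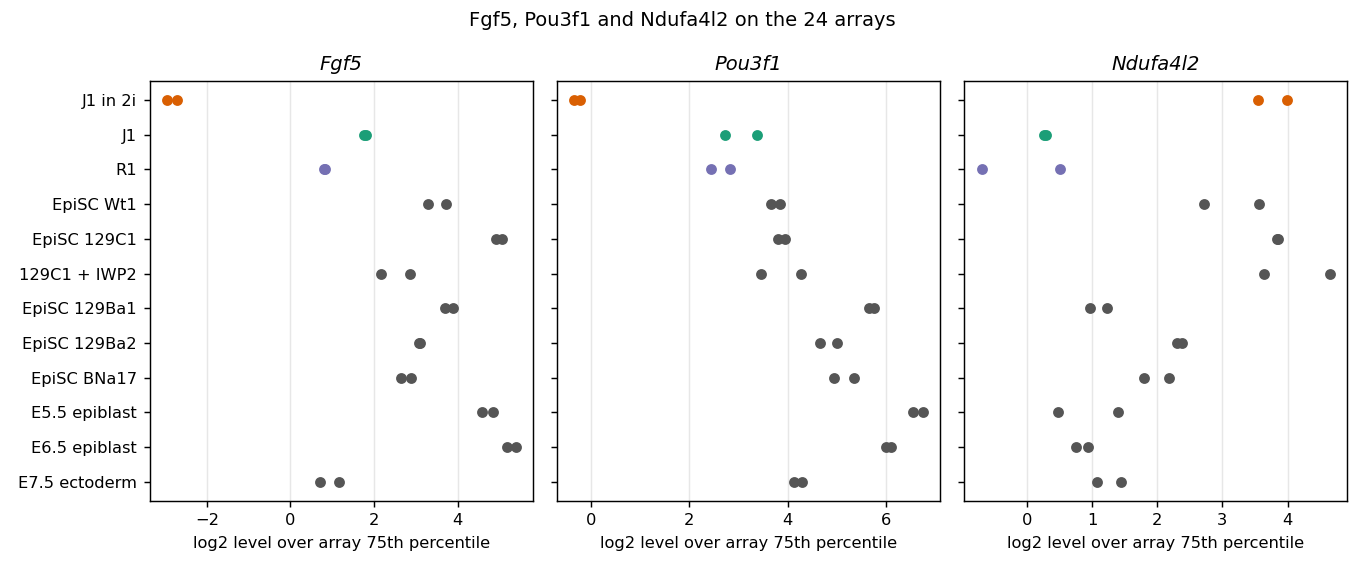
Log2 level of Fgf5, Pou3f1 and Ndufa4l2 over the array's 75th percentile (horizontal) on each of the 24 arrays, 1 point per array and 1 row per group. The 2i arrays lie lowest of all for Fgf5 (-2.71 and -2.95) and Pou3f1 (-0.22 and -0.34), and at 3.55 and 4.0 for Ndufa4l2 they lie above both untreated mESC lines.

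Several Fgf ligands were lower in 2i. Of 12 ligand genes on the list, 8 were tested, and 5 of these fell and none rose, with a median difference of -1.59. That is 62.5% called, against 13.6% of all genes. Fgf8, a ligand of the epiblast and streak, read -2.06 and -2.37 in 2i, against 1.62 and 1.64 in untreated J1, and fell by 3.85 ± 0.28 (adjusted p = 4.36e-07). Its second probe, not well above background on either 2i array, was at least 10.45-fold lower. Fgf15 differed by -2.54 ± 0.28 (adjusted p = 1.82e-05), Fgf17 by -1.85 ± 0.33 (adjusted p = 0.000931) and Fgf18 by -1.34 ± 0.15 (adjusted p = 2.72e-05). All 4 of these ligands were also called lower against R1. Fgf4, the ligand that mESCs themselves use to activate Erk, was not called, at 0.50 (adjusted p = 0.2).

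Of 18 tested genes of Erk feedback and output, 3 fell and none rose (16.7% called, against 13.6% of all genes), with a median of -0.20. The phosphatase gene Dusp2 read -1.16 and -1.09 in 2i, against 0.83 and 0.71 in untreated J1, so that both 2i arrays lay below both J1 arrays, and it fell by 1.90 ± 0.30 (adjusted p = 0.000342). Dusp5 differed by -1.95 ± 0.65 (adjusted p = 0.0332) and Ccnd1, the cyclin D1 gene, by -1.02 ± 0.24 (adjusted p = 0.00594). Dusp5 lost the call whichever of the 4 arrays was left out (adjusted p from 0.0729 to 0.175), and Ccnd1 did not without the second J1 array (-0.92, adjusted p = 0.0522). The feedback genes most often read as Erk reporters did not pass. Dusp6, an Erk phosphatase, read 4.57 and 4.43 in 2i, against 4.74 and 4.63 in untreated J1, a difference of -0.18 ± 0.25 (adjusted p = 0.603). Spry2 and Spry4, inhibitors of receptor signalling, differed by -0.50 ± 0.29 (adjusted p = 0.198) and -0.68 ± 0.52 (adjusted p = 0.34). The Ets factors Etv4 and Etv5 were nominally higher, at 0.50 ± 0.30 (adjusted p = 0.221) and 0.43 ± 0.21 (adjusted p = 0.131). Spred1 had a significant difference under 2-fold, -0.96 ± 0.19 (adjusted p = 0.00194).

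Of 20 immediate early genes tested, 6 fell and none rose, with a median of -0.75, and leaving out 1 array at a time left 2 to 4 calls. In the fit of all arrays 30.0% of the list was called, against 13.6% of all genes. Myc, a growth factor-dependent transcription factor, read 0.21 and 0.17 in 2i, against 1.48 and 1.5 in untreated J1. Both 2i values were below both J1 values, with a difference of -1.30 ± 0.33 (adjusted p = 0.00876). The AP-1 gene Junb differed by -1.61 ± 0.40 (adjusted p = 0.00827), and Ier5 by -1.71 ± 0.35 (adjusted p = 0.00251). Ier2, Btg2 and Fosl1 differed by -1.12 ± 0.30, -1.08 ± 0.31 and -1.37 ± 0.49. Without the second 2i array Myc (adjusted p = 0.0522) and Junb (0.057) did not pass, Ier2 did not without the first 2i array (0.0935) or the second J1 array (0.0711), and Btg2 (0.0568 to 0.0846) and Fosl1 (0.0676 to 0.246) did not whichever array was left out. Egr1 and Fos, the classical Erk-induced genes, differed by 0.14 ± 0.81 and 0.36 ± 1.35 and did not pass (adjusted p = 0.916 and 0.865). Against R1 the difference of Myc was -0.86 ± 0.33 (adjusted p = 0.0549), and that of Egr1 and Fos had the other sign (-0.07 and -0.52).

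Of 24 tested components of the pathway from Fgf receptors to Erk, 1 was called, against 13.6% of all genes. It was the Ets factor gene Elk1, higher by 1.1 ± 0.33 (adjusted p = 0.0221), a call that was lost whichever array was left out (adjusted p from 0.0585 to 0.13), under quantile normalization (a difference of 0.46) and in the mean of its probes (0.56). Map2k1, which encodes the Mek1 kinase, read 2.57 and 2.71 in 2i, against 3.37 and 3.40 in untreated J1, lower by less than 2-fold at -0.75 ± 0.24 (adjusted p = 0.029).

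Many primed epiblast genes fell. Of 22 tested, 11 fell and none rose, against 7.14% of all genes called lower, and the median difference was -1.18. With R1 as the reference, 8 of 21 tested members fell and 1 rose, with a median of -0.82. Beside Fgf5 and Pou3f1, the kinase gene Pim2 read -1.51 and -1.55 in 2i, against 2.10 and 2.35 in untreated J1, and fell by 3.75 ± 0.36 (adjusted p = 6.81e-06). Otx2, the homeobox factor of epiblast and forebrain, read 3.17 and 3.36 in 2i, against 4.87 and 4.70 in untreated J1. It was well above background on all 4 arrays, and fell by 1.52 ± 0.20 (adjusted p = 7.86e-05). Fst, which encodes the activin antagonist follistatin, differed by -2.22 ± 0.33 (adjusted p = 0.00022), and Cdh2, the N-cadherin gene, by -1.22 ± 0.23 (adjusted p = 0.00125). Against R1, Otx2 (-0.92) and Cdh2 (-0.71) were significantly lower by less than 2-fold. Sox3 and Sox11, of the same list, were significantly lower by less than 2-fold (-0.82 and -0.80), and Zic2, Foxd3 and Dnmt3a did not pass, at 0.96, -1.15 and -0.29. The replicate values and the 2 untreated lines are set side by side in the plot of levels by array.

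**Figure D3:**
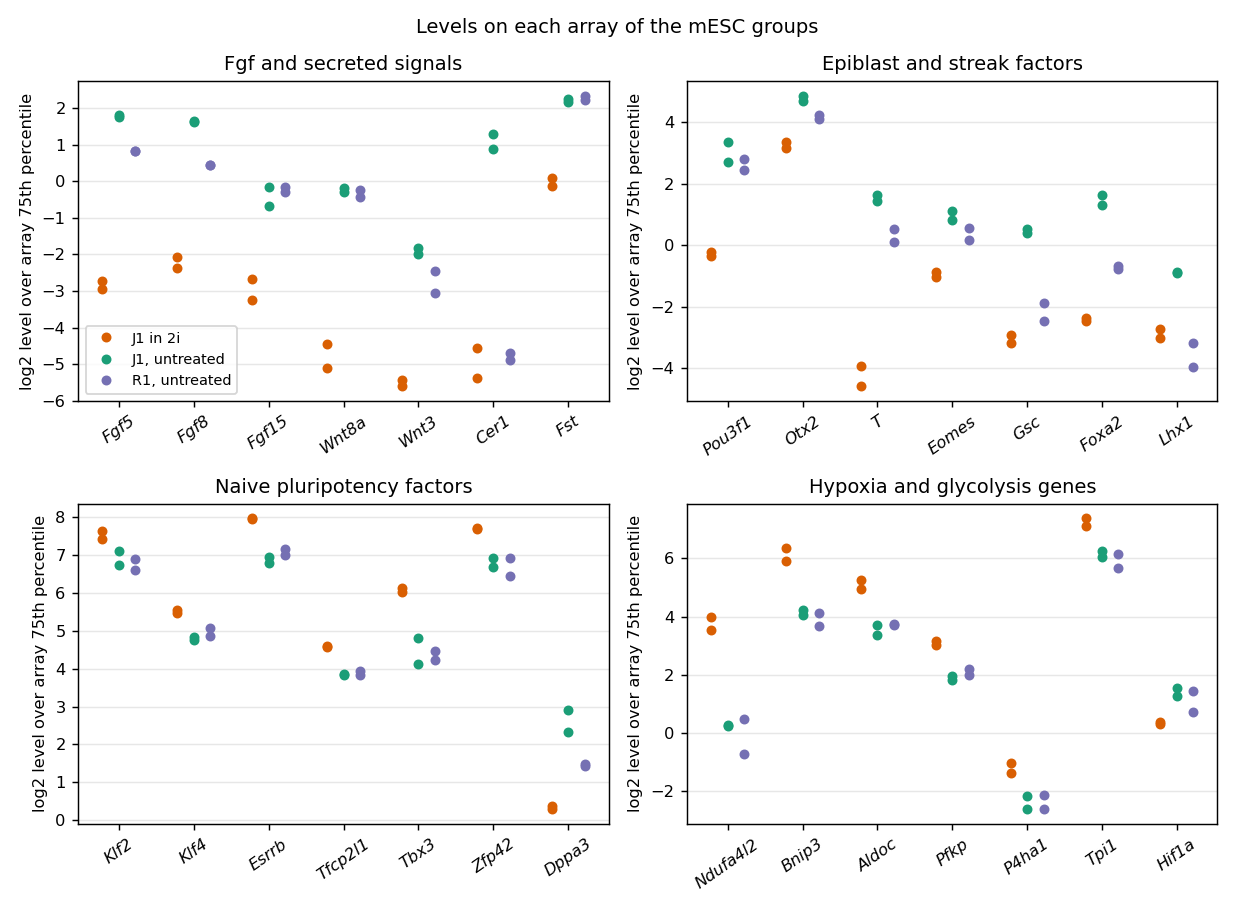
Log2 level over the array's 75th percentile (vertical) of 28 genes in 4 groups, 1 point per array, for J1 in 2i (orange), untreated J1 (green) and untreated R1 (purple). Fgf5, Fgf8, Pou3f1, T and Wnt8a lie lower in 2i than in both untreated lines, while Cer1 reads -4.70 and -4.89 in R1, as low as in 2i, and Esrrb, Tfcp2l1 and Zfp42 lie a little higher in 2i.

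Primitive streak and mesoderm genes, which mark the first cells to leave the epiblast at gastrulation, were lower in several members. Of 17, 11 were tested, of which 6 fell and 1 rose (63.6% called, against 13.6% of all genes), with a median of -1.62. T, the brachyury gene, read -4.59 and -3.91 in 2i, against 1.65 and 1.45 in untreated J1. Neither 2i array was well above background, and its level was at least 40.1-fold lower (adjusted p = 1.71e-05), a bound set by the lowest signal called above background on each array. Eomes, a T-box factor of streak and endoderm, read -1.02 and -0.86 in 2i, against 1.12 and 0.84 in untreated J1, and fell by 1.92 ± 0.33 (adjusted p = 0.000671). Its second probe, not well above background on either 2i array, was at least 3.84-fold lower. Wnt3, the ligand that starts the streak, was at least 3.63-fold lower (adjusted p = 4.68e-07). Wnt8a, which is on the primed epiblast list and not on this one, was at least 11.5-fold lower (adjusted p = 0.000265). With the background correction that damps dim probes Wnt3 was lower by less than 2-fold (-0.75, adjusted p = 0.00597). Evx1 differed by -1.62 ± 0.44 (adjusted p = 0.0124), and did not pass without the second 2i array (0.0842) or the first J1 array (0.0807). The endothelial receptor gene Kdr was the member that rose, by 1.33. Against R1, 2 of 10 tested members fell and 1 rose.

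The organizer and endoderm genes fell relative to J1 but differed between the untreated lines. Gsc, the goosecoid gene of the anterior streak, read -3.18 and -2.92 in 2i, against 0.52 and 0.40 in untreated J1, a difference of -3.51 ± 0.44 (adjusted p = 6.1e-05), with 1 of the 2i arrays well above background. Lhx1 read -3.01 and -2.71 in 2i, against -0.88 and -0.91 in untreated J1, a difference of -1.97 ± 0.39 (adjusted p = 0.00204). Cer1, which encodes a secreted antagonist of Nodal, Bmp and Wnt, read -4.56 and -5.39 in 2i, against 1.30 and 0.87 in untreated J1 and was at least 29.0-fold lower (adjusted p = 0.000286). In R1 all 3 were also called lower than in J1, Gsc by a difference of -2.63, and Lhx1 and Cer1, above background on neither R1 array, at least 4.2-fold and at least 16.6-fold. Against R1, Gsc differed by -0.89 ± 0.44 (adjusted p = 0.135) and Lhx1 did not pass (adjusted p = 0.18), and Cer1 was above background in neither group. The same held for Cyp26a1, a retinoic acid-degrading enzyme, Npas3 and Mrgprb3, which were at least 22-fold, at least 18.0-fold and at least 14.5-fold lower in 2i than in J1 and called lower in R1 too. Against R1 T was at least 17-fold lower in 2i (adjusted p = 1.01e-04), Wnt8a at least 10.8-fold lower (adjusted p = 2.35e-04) and Eomes differed by -1.32 (adjusted p = 0.00675).

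Of 16 primitive endoderm genes, 10 were tested and 5 fell, against 7.14% of all genes called lower. The median was -1.91, or -1.53 with the 4 members above background in only 1 group at their bounds. Requiring signal above background on all 4 arrays left 2 calls in the list. The primitive endoderm arises beside the naive epiblast in the blastocyst and depends on Fgf signalling. Foxa2 read -2.37 and -2.45 in 2i, against 1.64 and 1.31 in untreated J1, a difference of -3.89 ± 0.66 (adjusted p = 0.000666), and its second probe, not well above background on either 2i array, was at least 6.17-fold lower. Against R1 its difference was -1.69 ± 0.66 (adjusted p = 0.0593). Gata6 was at least 6.04-fold lower, Pdgfra at least 4.01-fold and Dab2 at least 3.02-fold (adjusted p = 0.00658, 0.0114 and 0.00371). With the background correction that damps dim probes Gata6, Pdgfra and Dab2 differed by -0.75, -0.50 and -0.42 and did not pass (adjusted p = 0.0931, 0.147 and 0.38). Gata6 did not pass without the second 2i array (0.0657) or the second J1 array (0.0537), nor Pdgfra without the first 2i array (0.0873) or the second J1 array (0.0789). Lamb1, a laminin subunit, fell by 1.69 ± 0.23 (adjusted p = 9.5e-05). Among the tested members 3 had a positive difference. Hnf4a had the largest, 1.85, with a mean of -0.05 in 2i, against -1.90 in untreated J1, and was not called. Gata4, Sox7, Ttr, Afp and Apoa1 were not well above background on both arrays of either group. Against R1, 3 of 8 tested members fell.

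Direct targets of Wnt and beta-catenin did not rise together. Of 18 tested, 1 rose and 7 fell, the median was -1.25, and leaving out 1 array at a time gave 5 to 8 calls. In the fit of all arrays 44.4% of these were called, against 13.6% of all genes. The member that rose was Znrf3, which encodes a membrane ligase that removes Wnt receptors, by 1.03. T, described above, Lef1, a DNA-binding partner of beta-catenin, and Nkd1 were among those that fell. Lef1 read -0.52 and -0.45 in 2i, against 0.78 and 1.01 in untreated J1, with no overlap, and differed by -1.37 ± 0.24 (adjusted p = 0.000801). Sp5, a Wnt-induced factor, read 0.60 and 0.54 in 2i, against 1.79 and 1.86 in untreated J1. Its difference of -1.25 ± 0.51 (adjusted p = 0.0722) did not pass here, and passed when the 6 mESC arrays alone were fitted (adjusted p = 0.00152). Cdx1, another target, differed by -0.19 ± 0.46. Fzd7 fell by 1.33 ± 0.23 on the probe that represents it, while a second probe gave -0.03 ± 0.25. Apcdd1, above background on neither 2i array, was at least 2.6-fold lower (adjusted p = 0.049) and did not pass without the second 2i array (0.35), the first J1 array (0.0958) or the second J1 array (0.215).

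Probes of the feedback gene Axin2, the most used reporter of Wnt signalling, disagreed. The brighter probe, which represents the gene here, read -3.33 and -2.58 in 2i, against -2.0 and -2.34 in untreated J1, with a difference of -0.79 ± 0.47 (adjusted p = 0.223) and 1 of the 2i arrays well above background. The other probe was well above background on both 2i arrays and neither J1 array, and was at least 2.28-fold higher (adjusted p = 6.41e-04). The mean of the Axin2 probes differed by 0.94 (adjusted p = 0.041). The probes of Sp8 had opposite signs. The representative probe, above background on neither 2i array, was at least 2.7-fold lower (adjusted p = 1.23e-05), while the other, above background on neither J1 array, was nominally higher and did not pass (adjusted p = 0.106).

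Of 24 tested Wnt pathway components, 1 rose and 2 fell (12.5% called, against 13.6% of all genes). The ligands Wnt3 and Wnt8a fell, as given above, and Tcf7l2, a Tcf factor, rose by 1.07 ± 0.26 (adjusted p = 0.00743), with a second probe at 0.67 ± 0.20. Tcf7l2 did not pass without the second 2i array (0.0518), nor in the mean of all its probes, dim ones included (0.12, adjusted p = 0.706). Tcf7l1, the Tcf factor that represses naive genes, and Ctnnb1, the beta-catenin gene, differed by -0.24 ± 0.21 and -0.14 ± 0.16 and did not pass, and Gsk3b differed by 0.48 ± 0.21.

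The promoters of T and Sp5 are shown because both genes are textbook targets of Tcf and Lef and both hold a matching motif. The windows of 300 bases end shortly after the annotated start site, in the GRCm38.p6 build of RefSeq, chr17:8434173-8434472 and chr2:70474673-70474972, both on the plus strand. Capitals mark a match to CTTTGAT or CTTTGAA, searched on both strands.
T: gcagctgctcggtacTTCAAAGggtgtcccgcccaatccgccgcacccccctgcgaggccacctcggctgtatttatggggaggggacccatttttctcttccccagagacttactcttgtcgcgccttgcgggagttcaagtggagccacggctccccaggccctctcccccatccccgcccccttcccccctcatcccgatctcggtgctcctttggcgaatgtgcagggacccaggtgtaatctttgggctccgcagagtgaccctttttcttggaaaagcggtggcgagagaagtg
Sp5: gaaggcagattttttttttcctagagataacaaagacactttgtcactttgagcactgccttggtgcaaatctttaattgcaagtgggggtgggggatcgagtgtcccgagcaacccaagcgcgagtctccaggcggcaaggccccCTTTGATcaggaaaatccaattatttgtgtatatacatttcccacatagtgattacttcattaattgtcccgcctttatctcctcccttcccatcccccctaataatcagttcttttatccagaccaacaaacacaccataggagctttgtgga
The match in T lies 235 bases upstream of the start site and that in Sp5 104 bases upstream. Among the 18 tested Wnt targets 14 had a promoter in the table, and 5 of these (Dkk1, Sp5, Sp8, T and Tnfrsf19) held a match, in 5 of 21 promoter windows. Of all 32851 promoters in the table, 8.65% held one. A match is a description of the letters in this window only.

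No naive pluripotency gene was called in either direction by limma, and 6 of the 23 tested had an unadjusted p below 0.05. Of the 23, 16 were nominally higher in 2i, and the median difference was 0.46. Esrrb, an orphan nuclear receptor that Gsk3 inhibition is known to release from Tcf7l1, read 7.96 and 7.97 in 2i, against 6.94 and 6.80 in untreated J1. The difference of 1.09 ± 0.45 (adjusted p = 0.0791) did not pass in the fit of all 24 arrays. Tbx3 read 6.12 and 6.01 in 2i, against 4.80 and 4.11 in untreated J1, a difference of 1.61 ± 0.69 (adjusted p = 0.0895). Tfcp2l1, a naive factor downstream of both Lif and Wnt signals, read 4.56 and 4.58 in 2i, against 3.83 and 3.85 in untreated J1. Its difference of 0.73 ± 0.48 (adjusted p = 0.26) did not pass. Klf2 and Klf4, Krüppel-like factors, differed by 0.60 ± 1.01 and 0.71 ± 0.49, and Zfp42, known as Rex1, by 0.89 ± 0.63. In that fit all 12 groups share 1 estimate of the spread of a gene. Fitted on the 6 mESC arrays alone, 4 of the 23 were called, among them Esrrb (adjusted p = 0.002), Tbx3 (0.00397) and Dppa3 (0.00105). Of the 7 members with a negative difference, Dppa3, a naive and germ cell gene also called Stella, had the largest. It read 0.29 and 0.38 in 2i, against 2.91 and 2.34 in untreated J1, a difference of -2.29 ± 0.85 (adjusted p = 0.0542). R1 lay between at 1.49 and 1.42.

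Among 9 core pluripotency genes, 1 fell (11.1% called, against 13.6% of all genes). Nanog read 0.02 and -0.12 in 2i, against -0.73 and -1.09 in untreated J1, higher on both 2i arrays by 0.86 ± 0.31 (adjusted p = 0.0464), which is significant but under 2-fold. Pou5f1 differed by -0.40 ± 0.31 and Sox2 by -0.07 ± 0.15, and neither passed. Sall4 fell by 1.37 ± 0.31 on its representative probe, while the other probes gave 0.28 ± 0.15 and -0.69 ± 0.50. Of 14 genes of DNA methylation, 1 fell (7.14% called, against 13.6% of all genes). Dnmt3b, the de novo methyltransferase of the epiblast, read 6.64 and 6.55 in 2i, against 7.92 and 7.92 in untreated J1. It fell by 1.33 ± 0.23 (adjusted p = 0.00067), and its 2 other probes changed by -1.86 ± 0.27 and -1.49 ± 0.24. Against R1 Dnmt3b was lower by less than 2-fold, -0.98 ± 0.23 (adjusted p = 0.00411). Dnmt3a and Dnmt3l, its partner without enzyme activity, differed by -0.29 ± 0.23 and 0.50 ± 0.30 and were not called, nor were Tet1 and Tet2, at -0.18 and 0.07. Prdm14, a repressor of de novo methylation in naive cells, differed by -0.07 ± 0.43.

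**Figure D4:**
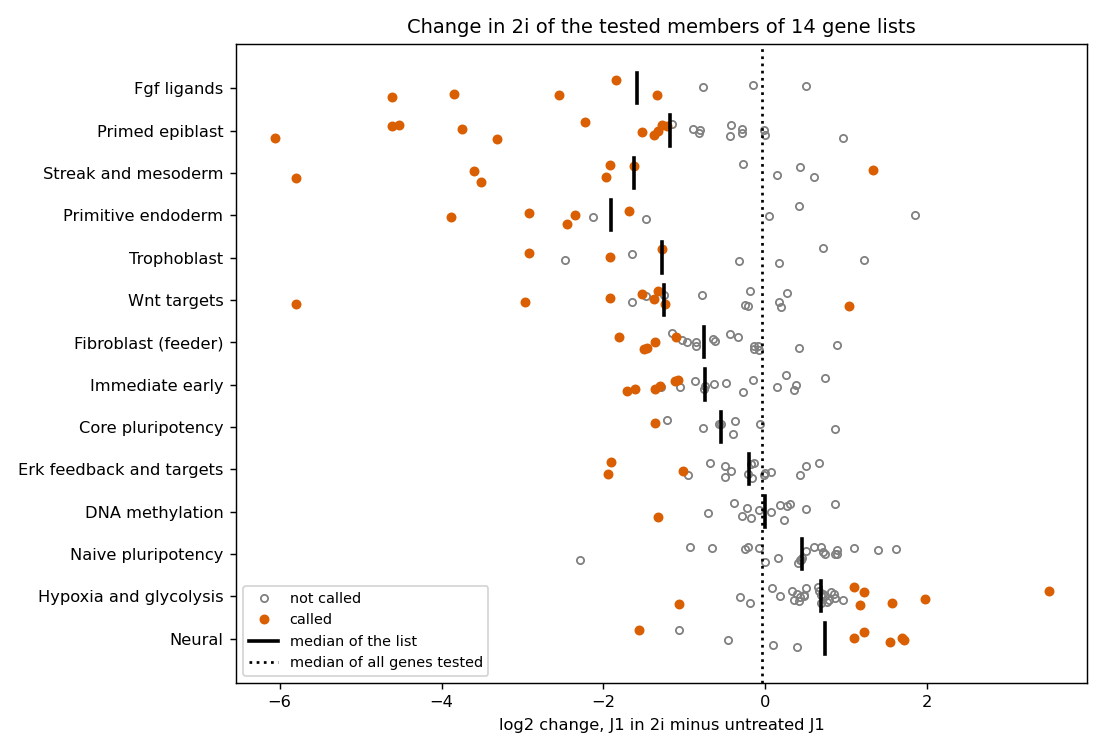
Log2 change between J1 in 2i and untreated J1 (horizontal) for the tested members of 14 gene lists (rows), with called genes filled, other genes open, the median of each list as a black bar and the median of all tested genes (-0.05) as a dotted line. Medians as drawn run from -1.91 for primitive endoderm to 0.74 for neural genes, and the hypoxia and glycolysis list holds 28 of 31 members above 0. With members above background in only 1 group at their bounds, these medians are -1.53 and 0.61. Streak genes (-1.62) are then lowest and hypoxia and glycolysis genes (0.69) highest.

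Several genes of the hypoxia response and glycolysis rose in 2i. Of 31 tested, 6 rose and 1 fell (22.6% called, against 13.6% of all genes) and 24 were not called. Of the 31, 28 had a positive difference, and the median was 0.69. Besides Ndufa4l2, Bnip3, a mitophagy receptor induced by hypoxia, read 5.90 and 6.34 in 2i, against 4.25 and 4.06 in untreated J1. It rose by 1.97 ± 0.26 (adjusted p = 8.82e-05), and its 2 other probes rose by 1.58 ± 0.25 and 2.04 ± 0.28. The glycolytic enzyme gene Aldoc (aldolase C) read 4.94 and 5.27 in 2i, against 3.73 and 3.36 in untreated J1, a difference of 1.56 ± 0.41 (adjusted p = 0.0115). Pfkp (phosphofructokinase) and Tpi1 (triosephosphate isomerase) differed by 1.21 ± 0.26 and 1.1 ± 0.22, with second probes at 0.18 ± 0.36 and 0.53 ± 0.22. P4ha1, a collagen prolyl hydroxylase, differed by 1.17 ± 0.30 (adjusted p = 0.00892), and the mean of all its probes did not pass (0.67, adjusted p = 0.216). Hif1a, which encodes the oxygen-regulated factor itself, read 0.40 and 0.31 in 2i, against 1.28 and 1.56 in untreated J1 and fell by 1.07 ± 0.24 (adjusted p = 0.00409).

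Leaving out 1 array at a time gave 4 to 7 calls in the hypoxia and glycolysis list. Aldoc did not pass without the second 2i array (0.0835) or the second J1 array (0.0819), P4ha1 without the second 2i array (0.0809) or the first J1 array (0.0871), and Tpi1 was under 2-fold without the second 2i array (0.97). The glycolytic enzyme genes Pgk1 (0.69), Gapdh (0.73), Pkm (0.85) and Aldoa (0.96) were significantly higher by less than 2-fold (adjusted p = 0.0416, 0.00627, 0.00135 and 0.0057). Ldha (0.36) and the glucose transporter gene Slc2a1 (-0.19) did not pass. Adm (0.08) and Car9 (0.76), of the same list, did not pass either (adjusted p = 0.88 and 0.236). Nor were Vegfa, Egln3, Ddit4 and Pdk1 called, with mean levels of -0.005, -0.36, 5.65 and 2.29 in 2i. In untreated J1 their means were -0.42, -0.84, 5.22 and 2.61. Against R1, 7 of 31 rose, Aldoa among them, none fell and the median was 0.51. Eno2, a glycolytic enolase outside the list, was among the largest rises, with -0.48 and 0.22 in 2i, against -3.02 and -2.06 in untreated J1 and a difference of 2.41 ± 0.30 (adjusted p = 5.45e-05). None of 25 nuclear genes of the respiratory chain was called by limma (5 at an unadjusted p below 0.05), and their median was 0.10.

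Promoters of Bnip3 and P4ha1 are shown because both genes were called higher in 2i on their representative probes and both hold the core of the hypoxia response element, ACGTG, the site of Hif1a with its partner Arnt. The windows are chr7:138909457-138909756 on the minus strand and chr10:59323046-59323345 on the plus strand of GRCm38.p6, from RefSeq, each written in the direction of the gene. Capitals mark ACGTG on either strand, with overlapping matches merged.
Bnip3: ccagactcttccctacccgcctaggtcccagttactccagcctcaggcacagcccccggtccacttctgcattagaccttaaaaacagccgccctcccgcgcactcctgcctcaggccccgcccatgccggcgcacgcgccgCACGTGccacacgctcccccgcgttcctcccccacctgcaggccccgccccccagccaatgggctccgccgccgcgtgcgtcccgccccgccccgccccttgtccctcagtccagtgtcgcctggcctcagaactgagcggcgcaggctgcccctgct
P4ha1: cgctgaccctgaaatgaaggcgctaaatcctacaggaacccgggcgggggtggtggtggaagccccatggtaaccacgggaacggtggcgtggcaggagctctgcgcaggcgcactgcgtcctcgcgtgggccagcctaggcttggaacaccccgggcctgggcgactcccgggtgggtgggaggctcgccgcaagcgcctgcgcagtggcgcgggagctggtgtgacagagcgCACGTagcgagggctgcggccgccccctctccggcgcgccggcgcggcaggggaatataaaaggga
The match lies 108 bases upstream of the start site in Bnip3 and 16 bases upstream in P4ha1. Of 31 tested members 27 had a promoter in the table, and 20 of these held the motif, in 22 of 38 windows. Of all 32851 promoters, 19.6% held it. Of the members called higher, Aldoc, Bnip3 and P4ha1 were among the 20 with the motif, and Ndufa4l2, Pfkp and Tpi1 were not. Hif1a, the member that fell, was among the 20. No test was made of the motif against the change in expression.

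Outside the lists, the genes with the largest falls on probes well above background on all 4 arrays were Pkdcc, Cck, Wt1, Amot, Vrtn and Penk, beside Fgf5, Fgf8, Foxa2, Pim2, Pou3f1 and Krt8. Pkdcc, a secreted protein kinase, read -1.79 and -1.97 in 2i, against 3.35 and 2.66 in untreated J1, a difference of -4.88 ± 0.44 (adjusted p = 3.72e-06). Wt1, the Wilms tumour transcription factor, read -2.61 and -2.09 in 2i, against 1.32 and 1.39 in untreated J1, a difference of -3.70 ± 0.25 (adjusted p = 2.36e-07). The neuropeptide genes Cck and Penk differed by -3.87 ± 0.41 and -3.0 ± 0.28. Amot, a regulator of Hippo signalling, and Vrtn, the vertnin gene, differed by -3.64 ± 0.39 and -3.30 ± 0.22. All 6 were called against R1 too. Among genes not above background in 2i, Actc1, cardiac actin, was at least 15.8-fold lower and Lad1, the basement membrane gene ladinin, at least 16.1-fold lower (adjusted p = 2.51e-08 and 2.18e-06). Cpne8 was at least 15.8-fold lower (0.0154), a value that rests on a single J1 array at 3.76, since the other read -2.91. Without that second J1 array its adjusted p was 0.177 and without the first 2i array 0.122.

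The largest rises after Ndufa4l2 came from genes of varied roles. Rbakdn, a noncoding transcript, read 0.62 and 0.89 in 2i, against -1.73 and -2.33 in untreated J1, a difference of 2.79 ± 0.34 (adjusted p = 4.06e-05). Rgs11, a regulator of G protein signalling, read 1.23 and 1.57 in 2i, against -1.25 and -1.01 in untreated J1, a difference of 2.53 ± 0.25 (adjusted p = 6.96e-06). Patl2, a relative of the RNA decay factor Pat1, differed by 2.48 ± 0.35 (adjusted p = 0.000165), and Ushbp1 by 2.60 ± 0.47 (adjusted p = 0.00107). The lens genes Cryge and Crygd differed by 2.73 ± 0.53 and 2.49 ± 0.47, and the X-linked gene Xlr5b by 2.32 ± 0.36. Against R1 the lens genes were called and Xlr5b was not, at 0.86 (adjusted p = 0.0751). The nuclear noncoding RNA Neat1, the scaffold of paraspeckles, read 1.55 and 1.44 in 2i, against -1.22 and -0.68 in untreated J1, a difference of 2.44 ± 0.45 (adjusted p = 0.00117). Malat1, its neighbour in the genome, differed by 2.37 ± 0.73 (adjusted p = 0.0246), and did not pass without the first 2i array (0.099), the second 2i array (0.0932) or the first J1 array (0.268). Creb3l3 differed by 2.32 ± 0.77 (adjusted p = 0.0327) and did not pass whichever array was left out (0.0768 to 0.165).

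Kiss1, the kisspeptin gene, was at least 12.6-fold higher in 2i (adjusted p = 5.7e-05), with both 2i arrays and neither J1 array well above background, and its second probe, above background in the same way, was at least 4.93-fold higher. Hoxc13 (at least 6.11-fold), Calr4 (at least 5.11-fold), Olfr1299 (at least 4.58-fold) and Sema4g (at least 4.53-fold) were likewise above background only in 2i, with adjusted p = 0.00229, 5.13e-04, 4.61e-05 and 9.37e-04. B4galnt2 and Olfr103 (at least 5.37-fold and at least 4.69-fold) did not pass whichever array was left out, with adjusted p from 0.053 to 0.114 and from 0.0784 to 0.118. Tssk4 (at least 5.17-fold) read -2.86 and 1.05 in 2i, against -3.55 and -5.09 in untreated J1, and did not pass without the second 2i array (0.101) or the second J1 array (0.0846).

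Epithelial genes were lower in part. Of 21 tested cadherin, keratin and junction genes, 6 fell and none rose (28.6% called, against 13.6% of all genes). Krt8, a simple epithelial keratin, read -1.18 and -0.87 in 2i, against 2.32 and 1.71 in untreated J1, a difference of -3.04 ± 0.41 (adjusted p = 0.000105), and its partner Krt18 differed by -2.10 ± 0.33 (adjusted p = 0.000391). Esrp1, a splicing factor of epithelia, and Cldn6, a claudin, differed by -1.88 ± 0.25 and -1.83 ± 0.26. Ovol1 was at least 2.33-fold lower and did not pass without the second 2i array (0.21), the first J1 array (0.0744) or the second J1 array (0.0981). Cdh1, the E-cadherin gene, and Epcam were not called, at -0.39 and -0.47. Against R1 the difference of Krt18 was -0.51 ± 0.33 (adjusted p = 0.255), and R1 was itself called lower than J1, with a difference of -1.59.

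Of 24 matrix and adhesion genes, 4 fell and none rose (16.7% called, against 13.6% of all genes), with a median of -0.02. Cd44 and Itgav, the hyaluronan receptor and integrin alpha-V, differed by -1.98 ± 0.32 and -1.99 ± 0.39, with second probes at -0.44 ± 0.39 and 1.05 ± 0.37, and Itgav turned to 0.57 against R1. Itga3 differed by -1.14 ± 0.25 (adjusted p = 0.00387) and was under 2-fold without the first J1 array (-0.95). Fibroblast genes, the markers of the feeder layer, had a negative difference in 18 members and a positive one in 2. Of 20 markers, all tested, 5 fell and none rose (25.0% called), and the median was -0.75. Their summed linear level, in units of the array's 75th percentile, was 94.4 and 131 in 2i, 153 and 207 in untreated J1, and 217 and 234 in R1. None was below background in both groups. Tagln differed by -1.81 ± 0.31 (adjusted p = 0.000675) and Mmp2 by -1.5 ± 0.27 (adjusted p = 0.00109). S100a4, Twist2 and Dcn differed by -1.46 ± 0.50, -1.37 ± 0.50 and -1.11 ± 0.35. S100a4 (0.0597 to 0.213) and Dcn (0.0554 to 0.164) did not pass whichever array was left out, nor Twist2 without the first 2i array (0.312), the first J1 array (0.093) or the second J1 array (0.217). The collagen genes Col1a1 and Col1a2 were not called, at 0.89 and -0.15. The part of feeder RNA in the other results was not tested.

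Of 20 p53 targets and Cdk inhibitors, 4 fell and 1 rose (25% called, against 13.6% of all genes). Cdkn1c, which encodes p57, read 0.78 and 0.49 in 2i, against 3.09 and 2.75 in untreated J1, a difference of -2.29 ± 0.16 (adjusted p = 2.62e-07). Cdkn2b, which encodes p15, and Perp differed by -2.10 ± 0.43 and -1.71 ± 0.26. Pmaip1, the apoptosis gene Noxa, differed by -1.09 ± 0.26 (adjusted p = 0.00661) and was under 2-fold without the first J1 array (-0.98, adjusted p = 0.0565). Cdkn1a, which encodes p21, rose by 1.14 ± 0.38 (adjusted p = 0.0332), with a second probe at -0.72 ± 0.49, and did not pass whichever array was left out (0.0927 to 0.14). Of 23 cell cycle genes 1 fell (4.35% called), the cyclin D2 gene Ccnd2 (-1.53 ± 0.31 (adjusted p = 0.00228)).

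Of 15 Nodal and Tgf-beta genes 3 fell, Cer1, Fgf8 and Gdf1 (20% called lower, against 7.14% of all genes), and Nodal, Lefty1 and Lefty2 differed by -0.25 ± 0.29, -0.29 ± 0.59 and 0.15 ± 0.61. Gdf1 differed by -1.53 ± 0.22 (adjusted p = 0.000149) on its representative probe, and the mean of its probes had the other sign (0.51). Of 17 Bmp pathway genes (11.8% called) the antagonist Nog rose (1.55 ± 0.33 (adjusted p = 0.00282)) and Smad1 fell (-1.16 ± 0.34 (adjusted p = 0.0192)). A second Smad1 probe gave -0.09 ± 0.57, and the call was lost without the first 2i array (0.19), the first J1 array (0.116) or the second J1 array (0.0509). The Bmp targets Id1 and Id3 differed by -0.59 ± 0.29 and -0.04 ± 0.26. None of 13 Lif and Stat3 genes was called by limma (5 at an unadjusted p below 0.05, median -0.30), and Socs3, the main feedback gene of that path, differed by -0.21 ± 0.28. Of 25 genes of cholesterol and fatty acid synthesis, Insig1 rose (1.38 ± 0.23 (adjusted p = 0.000487)), and of 19 Atf4 stress genes Asns rose (1.05 ± 0.26 (adjusted p = 0.00721)) and Cebpb fell (-1.35 ± 0.29 (adjusted p = 0.00319)). Asns was under 2-fold without the second J1 array (0.83). No call was made by limma among 18 germline genes (4 at an unadjusted p below 0.05, median -0.17) or 6 tested genes of the 2-cell-like state (2 at an unadjusted p below 0.05, median 0.19).

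The rises included many noncoding and dim features. Because a gene entered when either group was bright, 64 olfactory receptor genes were tested between 2i and J1 but 26 between R1 and J1, so a count over the tested members draws on genes that passed through the 2i arrays alone. The kinds of gene were therefore set side by side over those genes that every one of the 6 arrays of 2i, J1 and R1 gave well above background. Of 144 such lncRNA genes 25 rose and 4 fell in 2i against J1 (17.4% higher, median 0.44), against 464 and 632 of 11402 protein-coding genes (4.07% higher, median -0.07). Of 16 olfactory receptor genes 4 rose and 1 fell (median 0.55). Over the same genes, the medians against R1 were 0.44 for lncRNA genes and 0.61 for olfactory receptor genes, and those of R1 minus J1 were 0.02 and -0.07. Among all tested genes 40 of 195 lncRNA and 29 of 64 olfactory receptor genes were called higher. These families were chosen after their values were seen. When genes were split into 4 bins of equal size by mean level, 478 of the 846 rises lay in the lowest bin and 197, 111 and 60 in the next ones, and the 932 falls divided as 470, 275, 143 and 44. The median local background was 25.5 and 25 on the 2i arrays, 35 and 36 on the untreated J1 arrays, and 41 and 40 on the R1 arrays. Its part in these rises was not tested.

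**Figure D5:**
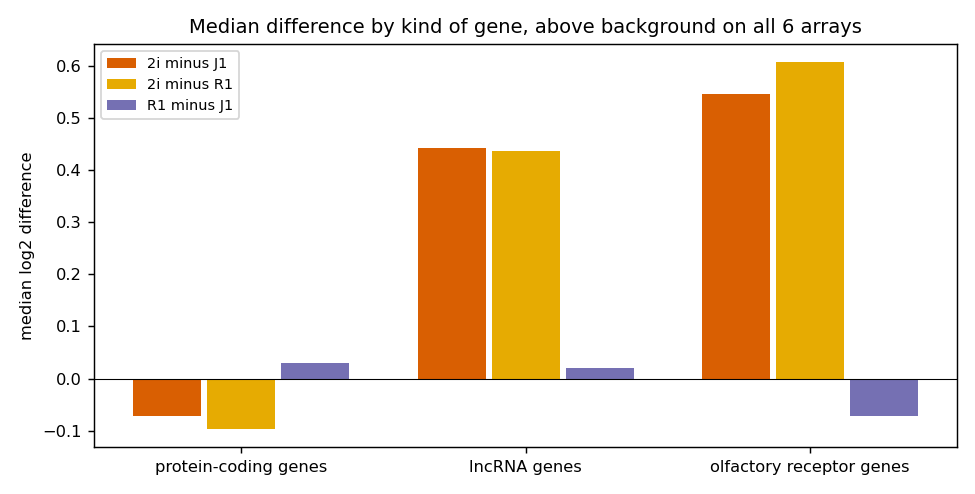
Median log2 difference (vertical) of protein-coding, lncRNA and olfactory receptor genes (horizontal) in 3 comparisons, 2i minus J1, 2i minus R1 and R1 minus J1, over genes well above background on all 6 arrays. The lncRNA and olfactory receptor medians are 0.44 and 0.55 for 2i minus J1, while protein-coding genes stay near 0, and the comparisons share arrays.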

How the data were processed

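Cy3-labelled total RNA was hybridised to single-colour Agilent arrays, and Agilent Feature Extraction 10.5.1.1 is named in the submitters' processing notes. Per the file headers, the deposited processed signals are linear intensities after background subtraction. Log2 values that the authors deposited for the same arrays matched these signals after scaling to the 75th percentile and centring on each probe's median (lowest r per array 0.99994), with column medians of 0.14 and -0.02 for the 2i arrays and 0.06 and 0.11 for the J1 arrays. Scale and direction follow from that match.

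Each array held 62976 spots, 3671 of them controls, and 55681 probes. RefSeq accessions named 27235 probes to 20660 genes. Flagged values touched 168 probes and were left out, and 0 values were saturated. A gene was represented by its probe of highest mean signal. Log2 processed signal minus the array's 75th percentile was fitted with limma 3.58.1 in R 4.3.3 (with the data.table package, version 1.17.8), over 24 arrays as 12 groups, with Benjamini-Hochberg adjustment over all tested genes, two-sided. A bound takes, per dim array, the higher of the probe's signal and the dimmest signal well above background. That dimmest signal is the lowest over all probes of the array and is not a detection limit of the probe itself. Among genes given as bounds, Gata6, Pdgfra, Dab2, Wnt3, Sp8, Apcdd1, Ovol1, Krt7, Pax6, Lhx2, Calr4, Sema4g and B4galnt2 lost the call with the background correction that damps dim probes. Kinds of gene and probe were also counted over those above background on all 6 mESC arrays, a set chosen after seeing the data. The number of arrays limits the precision.

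Members, lists and tests were chosen with earlier results of these data known. Of 552 genes in 29 lists, 547 were on the array, 492 were tested and 91 called. Named were the 12 largest rises and falls on probes above background on all 4 arrays, the 8 largest bounds each way, up to 6 called members of each list and a set of genes given always. Other members named beside a list's count, such as Hif1a, Kdr, Znrf3 and Nkd1, were chosen after their values were seen. Alternatives covered background correction, scaling, filter, probes, variance model, arrays fitted, replicate block, R1 as reference and each array left out. No genome was used here, and some genes are withheld and not reported here.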

Additional observations from a re-analysis of the deposited data

Results flagged for a closer look

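Probes to genomic intervals without a gene name, which enter none of the gene comparisons, carried a signal that was higher in 2i. Of 4078 such probes tested, 939 were called higher and 155 lower in 2i than in untreated J1 (23.0% higher, median 0.64). Among 16749 probes of named genes in the same fit 6.38% were higher, with a median of -0.06. A probe was tested where either group was above background, so the interval counts include dim probes that passed through the 2i arrays alone. Between the untreated lines R1 and J1, 3012 interval probes were tested, of which 10 were higher and 48 lower in R1. Over the 2452 interval probes above background on all 6 arrays of 2i, J1 and R1, 314 were higher and 73 lower in 2i than in J1 (12.8% higher, median 0.41). In R1 0 were higher and 5 lower than in J1 (median -0.01). Among probes of named genes above background on all 6 arrays, 4.12% were higher in 2i than in J1, with a median of -0.08. Another 4419 unnamed probes gave 599 higher and 246 lower in 2i (13.6% higher, against 6.38% of the probes of named genes). The 2i arrays were alone on their slide, so slide and 2i cannot be told apart for these probes.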

How the results depend on the processing

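Of 153 named genes 116 were called, and 34 of these lost the call when at least 1 array was left out. The total of 1778 calls was 1337 to 1399 without 1 array (570 to 606 higher, 763 to 806 lower). As an alternative chosen after seeing the data, normexp on the median signal gave 614 calls (257 higher, 357 lower), and the planned version on the mean signal was not run because the files used here hold no such column. Requiring signal above background on all 4 arrays gave 1176 (528 higher), and no fold minimum 3949 (1712 higher, 2237 lower). The cause was not tested. The 2i and J1 arrays share replicate numbers 1 and 2, but same-numbered arrays did not deviate together (r = 0.06, and from -0.29 to 0.27 over 66 group pairs), so the numbers were not taken to pair them. With the replicate block 1768 genes were called (844 higher, 924 lower), and of the named genes Fosl1, Apcdd1 and Twist2 lost the call (adjusted p = 0.054, 0.0571 and 0.0543). Of the called named genes 19 lost the call with the same sign with R1 in place of J1, and 18 when probes were averaged. In addition, the called genes Itgav and Lhx1 turned sign and lost the call with R1, as Gdf1 and Zic1 did when probes were averaged. Named genes above background in neither 2i nor R1, such as Cer1, were not tested with R1 and enter none of these counts.

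Calls in a list moved by over 1.5 times as follows. Under normexp they were 1 for immediate early, 3 for Fgf ligand, 4 for Wnt target, 1 for Wnt component, 4 for naive, 2 for core, 0 for Bmp, 2 for matrix, 2 for primitive endoderm, 4 for streak and 0 for neural genes. Under quantile normalization they were 0 for Erk components, 1 for naive, 2 for germline, 1 for Atf4 and 3 for fibroblast genes. With all 4 arrays above background they were 4 for Wnt target, 1 for Wnt component, 1 for Bmp, 2 for primitive endoderm, 4 for streak and 3 for neural genes, and with no filter 1 for germline and 2 for fibroblast genes. The mean of probes gave 4 for Wnt target, 0 for core, 1 for Bmp, 3 for cell cycle, 2 for matrix and 2 for neural genes, and the trend and robust fit 1 for naive genes. No fold minimum gave 3 for Erk components, 9 for Wnt components, 1 for naive, 4 for core, 2 for DNA methylation, 2 for germline, 1 for 2-cell-like, 2 for Lif, 4 for Bmp, 5 for Nodal, 16 for hypoxia, 4 for respiratory chain, 6 for cholesterol, 6 for Atf4, 9 for p53, 4 for cell cycle and 7 for matrix genes. The 4 J1 arrays alone gave 2 for Erk components, 4 for naive, 2 for core, 3 for germline, 5 for Bmp, 8 for primitive endoderm and 5 for trophoblast genes, and the 6 mESC arrays the same numbers except trophoblast. R1 in place of J1 gave 2 for Erk components, 2 for naive, 2 for core, 0 for DNA methylation, 2 for Lif, 2 for cholesterol, 1 for Atf4, 3 for primitive endoderm, 3 for streak, 3 for neural and 9 for fibroblast genes. The mean of J1 and R1 gave 2 for Erk components, 3 for naive, 2 for Lif, 2 for matrix and 10 for fibroblast genes.

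Signs turned for Sox2 (0.016) and Id3 (0.047) under quantile normalization, Id3 (0.022) under median scaling, and Gdf1 (0.51), Zic1 (-0.13) and Axin2 (0.94) in the mean of probes. With R1 they turned for Itgav (0.57), Lhx1 (0.71), Sox2 (0.052), Spry4 (0.94), Egr1 (-0.067), Fos (-0.52), Tcf7l1 (0.38) and Lefty2 (-0.032), and with the mean of both lines for Spry4 (0.13), Fos (-0.08) and Tcf7l1 (0.073). With 1 array left out Egr1 ran from -0.020 to 0.295, below 0 without the first 2i or the first J1 array, and Cdx1 from -0.468 to 0.086, above 0 without the first J1 array.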

Other observations

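Imprinted genes changed in both directions. Of 18 tested, 3 rose and 4 fell in 2i (38.9% called, against 13.6% of all genes). The noncoding RNA Meg3, expressed from the maternal allele of the Dlk1 and Dio3 domain, read 4.49 and 4.25 in 2i, against 2.29 and 2.88 in untreated J1, a difference of 1.78 ± 0.28 (adjusted p = 0.000343), although its 2 other probes gave 0.25 ± 0.39 and 0.66 ± 0.36. Mirg, a noncoding transcript of the same domain, differed by 1.16 ± 0.32 (adjusted p = 0.0143), and did not pass without the first 2i array (0.0992) or the first J1 array (0.147). Dlk1, its paternally expressed partner, read 0.01 and 0.53 in 2i, against 1.42 and 1.93 in untreated J1, a difference of -1.41 ± 0.26 on this probe and -1.72 ± 0.37 on the other. Against R1, Dlk1 differed by -0.50 ± 0.26 (adjusted p = 0.152). Plagl1, a paternally expressed zinc finger factor, differed by 2.0 ± 0.35 (adjusted p = 0.000804), and its 3 other probes rose, by 1.69 and 1.98 on 2 of them, while the one above background only in 2i was at least 2.61-fold higher. Ndn, the necdin gene, fell by 1.78 ± 0.21 (adjusted p = 2.72e-05).

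Neural genes were dim and mixed. Of 10 tested, 5 rose and 1 fell in 2i (60.0% called, against 13.6% of all genes). All 6 calls were lost with the background correction that damps dim probes. Nkx2-2 read 0.00 and -0.22 in 2i, against -1.70 and -1.90 in untreated J1, a difference of 1.69 ± 0.24 (adjusted p = 0.00017) that was under 2-fold in the mean of its probes (0.75), and Zic1 differed by 1.22 ± 0.21 (adjusted p = 0.000691), with the other sign in the mean of its probes (-0.13). Sox1 differed by 1.1 ± 0.25 (adjusted p = 0.00495), and did not pass without the first 2i array (0.91, adjusted p = 0.0584). Lhx2 was at least 2.12-fold higher, and Pax6 was at least 2.4-fold lower. Of 9 trophoblast genes 3 fell (33.3% called). The X-linked homeobox gene Rhox6 read 0.19 and 0.24 in 2i, against 3.32 and 2.97 in untreated J1, a difference of -2.92 ± 0.71 (adjusted p = 0.00684), and Krt7 was at least 2.43-fold lower, a call lost without the first 2i array (0.0763) or the first J1 array (0.103). Of 7 Xlr genes 6 rose, and of 6 gamma crystallin genes 5 rose, against 6.48% of all genes called higher. Both families were chosen after their values were seen. Against R1 the Xlr count was 1 of 7 and the crystallin count 5 of 6. Over genes above background on all 6 arrays of 2i, J1 and R1, 6 of 7 Xlr and 3 of 4 crystallin genes rose against J1. Over the same genes the median of R1 minus J1 was 1.07 for Xlr and 0.11 for crystallin genes.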
